A study of Mus musculus with 768 samples.

Results

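Single muscle stem cells were ranked within each mouse by their *Pax7* reads, scaled to 1000000 gene reads of the cell (RPM), and each mouse was cut into 3 terciles. The cells of the top tercile were compared with those of the bottom tercile, so the members were chosen by the measured level of *Pax7* mRNA itself. The top tercile held 123 cells and the bottom tercile 123, of 377 cells in all, and the 131 cells of the middle tercile are given as values. Cells with equal values, including those without a *Pax7* read, were ordered by their place in the deposited table. Each mouse gave 1 sum of reads per tercile, so that the mouse and not the cell was the replicate.

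Pax7 is a paired-box and homeodomain transcription factor that marks the stem cells of skeletal muscle and is needed for their maintenance after birth. These cells lie beneath the basal lamina of the fibre in a quiescent state, and when activated they raise Myod1, divide and either differentiate or return to quiescence. Immediate-early genes such as *Fos*, *Jun* and *Egr1* are transcribed within minutes of a stimulus without new protein synthesis, and in muscle stem cells they are known to be sensitive to the handling of the tissue during isolation.

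The cells came from the tibialis anterior muscle of male Tg:Pax7-nGFP littermates (background C57BL/6;DBA2 F1/JRj), in which *Pax7* regulatory sequence drives a nuclear green fluorescent protein. All were sorted as viable cells with the brightest reporter and their RNA was sequenced beside the methylated DNA of the same cell, so that both terciles come from the high end of the reporter. The 4 young mice (Y4, Y5, Y7 and Y8) were labelled as 2 months old and the 2 old mice (O1 and O5) as 24 months old, and both ages carried the same reporter. In both, the chopped muscle was digested with collagenase and trypsin, and the cells were frozen, stored in liquid nitrogen and thawed before the sort. The labels give no drug or injury. The study compared ages, and here each age contributes to both terciles, with 83 young and 40 old cells in each.

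A cell had 101755 to 626142 reads on 1015 to 3411 genes, and no 2 cells had identical counts. The summed reads of a mouse ranged from 3082940 to 9091252 in the bottom tercile and from 3170069 to 8105531 in the top tercile. The libraries carry no molecular identifiers, so reads are not independent molecules. Y4, Y5 and Y8 were sequenced on lane 3, and Y7, O1 and O5 on lane 2.

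*Pax7* (chromosome 4, 139737062 to 139833528, GRCm38, minus strand) set the groups, so its own values are a description. The mean of the cells of the top tercile was lowest at 1099 RPM, had a median of 2015 over the 6 mice and was highest at 2678. In the bottom tercile these means were 5.48, 35 and 158 RPM, and in the middle tercile 234, 430 and 766. All 38 cells without a *Pax7* read were in the bottom tercile, 12 of them in Y8 and 10 in O1. At the edges the groups were close together. In Y4 the lowest cell of the top tercile had 1285 RPM against 1201 in the highest cell of the middle tercile, and in O5 the lowest cell of the middle tercile had 74.96 RPM against 74.55 in the highest cell of the bottom tercile. The absolute cut also differed between mice, since the lowest cell of the top tercile had 557 RPM in Y8.

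**Figure D1:**
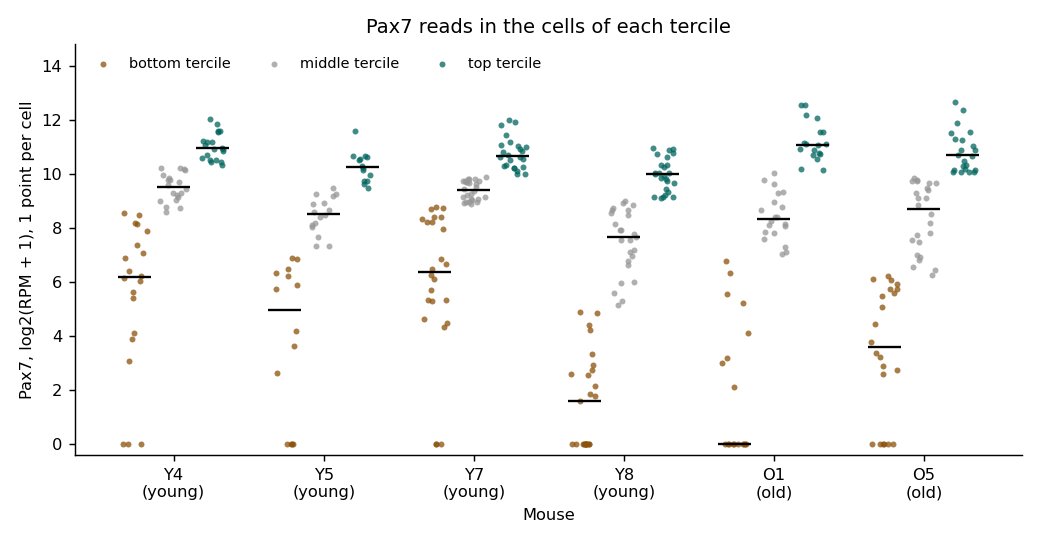
*Pax7* in single cells as log2(RPM + 1), with 1 point per cell, for the bottom, middle and top terciles of each of the 6 mice, and a bar at the median of each tercile. The medians of the top tercile lie between 1032 and 2157 RPM, and those of the bottom tercile between 0 and 82.2 RPM.

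Across the other genes, 0 of 5786 (0%) passed edgeR's quasi-likelihood test between the terciles with the mouse as block and Benjamini-Hochberg adjustment at 0.05. At an unadjusted p under 0.05 the same fit had 108 genes higher (1.87%) and 87 lower (1.5%) in the top tercile. limma on the mean log2(RPM + 1) of the cells called 10 genes higher (0.173%) and 4 lower (0.0691%), and DESeq2 on the summed reads called 45 higher (0.778%) and 27 lower (0.467%). Of the limma calls, 11 were also called by DESeq2, which is 78.6% of the 14 limma calls and 15.3% of the 72 DESeq2 calls. DESeq2 did not call *Akap2*, *Brd2* or *Odc1*. Left without Y4, limma called 8 genes, and without O1 it called 9, while edgeR called 2 (*Egr1* and *Junb*) without O5. *Btg2* had the smallest p in edgeR, and 5 of the 6 genes with the smallest p among those higher in the top tercile were *Btg2*, *Fosb*, *Fos*, *Egr1* and *Junb*. Each of them was higher in the top tercile in 6 of 6 mice, which held for 2.25% of all genes tested.

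These are immediate-early genes, and with *Nr4a1* and *Zfp36* they made up 7 of the 10 genes that limma called higher. *Fos*, *Fosb* and *Junb* encode subunits of the AP-1 factor, Egr1 is a zinc finger transcription factor, Btg2 a protein that restrains proliferation, Nr4a1 an orphan nuclear receptor, and Zfp36 an RNA-binding protein that speeds the decay of messages with AU-rich elements. The 200 bases before the annotated start of 6 of them are shown because these genes stood together in the comparison. The sequences are from RefSeq on GRCm38.p6, read 5′ to 3′ on the strand of the gene. Capitals mark matches on either strand to TGACGTCA (the full cyclic AMP response element), to its half-site TGACG, which the full element contains, to the AP-1 site TGANTCA, or to the CArG box of serum response factor.
Btg2: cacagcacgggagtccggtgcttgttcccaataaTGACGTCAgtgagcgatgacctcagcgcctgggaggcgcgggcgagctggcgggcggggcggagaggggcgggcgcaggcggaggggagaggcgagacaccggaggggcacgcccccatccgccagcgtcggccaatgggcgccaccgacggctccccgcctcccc
Fosb: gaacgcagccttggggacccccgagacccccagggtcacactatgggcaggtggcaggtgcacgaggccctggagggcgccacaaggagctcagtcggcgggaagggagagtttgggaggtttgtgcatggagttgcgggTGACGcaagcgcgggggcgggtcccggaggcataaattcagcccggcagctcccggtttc
Fos: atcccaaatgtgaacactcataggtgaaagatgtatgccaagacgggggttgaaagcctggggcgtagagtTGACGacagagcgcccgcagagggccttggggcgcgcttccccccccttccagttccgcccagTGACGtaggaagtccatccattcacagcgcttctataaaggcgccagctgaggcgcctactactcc
Junb: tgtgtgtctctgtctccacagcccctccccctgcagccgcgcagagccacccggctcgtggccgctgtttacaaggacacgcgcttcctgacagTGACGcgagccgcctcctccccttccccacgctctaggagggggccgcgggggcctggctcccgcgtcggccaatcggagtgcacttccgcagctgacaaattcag
Nr4a1: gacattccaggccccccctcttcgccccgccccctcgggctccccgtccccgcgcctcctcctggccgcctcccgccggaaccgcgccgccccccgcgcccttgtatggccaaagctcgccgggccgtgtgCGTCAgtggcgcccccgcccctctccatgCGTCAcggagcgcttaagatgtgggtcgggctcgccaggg
Zfp36: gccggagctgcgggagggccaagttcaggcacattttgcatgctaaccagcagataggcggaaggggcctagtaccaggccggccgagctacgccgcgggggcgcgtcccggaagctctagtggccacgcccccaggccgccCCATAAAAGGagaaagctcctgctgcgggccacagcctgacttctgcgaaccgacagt

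The stretches lie at chr1:134079156-134079355 (*Btg2*, minus strand), chr7:19310046-19310245 (*Fosb*, minus), chr12:85473690-85473889 (*Fos*, plus), chr8:84978749-84978948 (*Junb*, minus), chr15:101266646-101266845 (*Nr4a1*, plus) and chr7:28379229-28379428 (*Zfp36*, minus). *Btg2* held the full element from 166 to 159 bases before its start. The half-site stood 60 bases before the start of *Fosb*, 129 and 66 bases before that of *Fos*, 106 bases before that of *Junb*, and 69 and 40 bases before that of *Nr4a1*. *Zfp36* held a CArG box from 58 to 49 bases before its start. Over the 250 bases before the start, the half-site was in 19.8% of 27025 genes with a promoter outside chromosome 18 and in 35.6% of the 4087 genes tested that had one. It was in 48.4% of the 31 early and stress genes with a promoter. The full element was in 1.77%, the AP-1 site in 7.82% and the CArG box in 1.62% of all promoters. Among the genes tested these were 3.7%, 5.51% and 1.86%, and each of the 3 was in 2 of the 31 early and stress genes. The matches are letters in a window and were not tested as binding sites.

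*Btg2* had a lowest, median and highest level of 47.6, 242 and 612 reads per 1000000 of the summed gene reads (CPM) over the 6 mice in the bottom tercile. The top tercile had 328, 1037 and 1803 CPM. The ranges overlapped between mice, but the top tercile was above the bottom tercile within each mouse and the middle tercile lay between them in all 6. The log2 difference of the summed reads, top minus bottom, was 1.99 (standard error 0.22, edgeR adjusted p = 0.0598), and that of the mean log2(RPM + 1) was 3.04 (limma adjusted p = 0.000615).

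*Fos* went from 478, 1005 and 1726 CPM in the bottom tercile to 3268, 4042 and 6540 CPM in the top tercile, so that every top tercile was above every bottom tercile. Its log2 difference was 2.27 (standard error 0.30, edgeR adjusted p = 0.0737), with 3.08 in limma (adjusted p = 0.000353). *Fosb* had 847, 1045 and 1743 CPM in the bottom and 1523, 2760 and 3951 CPM in the top tercile. It had reads in a median of 94.7% and 95.6% of the cells, and its log2 difference of 1.25 (standard error 0.16, edgeR adjusted p = 0.0737, limma 1.61, adjusted p = 0.0195) was the smallest of the 7.

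*Junb* also had no overlap between the terciles, with 458, 842 and 1339 CPM in the bottom and 1857, 2572 and 3292 CPM in the top tercile. Its log2 difference was 1.70 (standard error 0.26, edgeR adjusted p = 0.122), with 3.09 in limma (adjusted p = 2.84e-05). *Egr1* had 469, 1216 and 3884 CPM in the bottom and 2791, 4936 and 10005 CPM in the top tercile. O5 had the highest bottom tercile and O1 the highest top tercile of *Egr1*. The log2 difference was 1.92 (standard error 0.27, edgeR adjusted p = 0.0838), and in limma it was 3.63 (adjusted p = 2.08e-06), the smallest adjusted p of that test.

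*Nr4a1* had 78.98, 604 and 1640 CPM in the bottom and 267, 1724 and 3633 CPM in the top tercile, with a wide overlap between mice. The difference was largest in O5 and smallest in O1 on the mean log2 scale (5.12 and 0.99). For *Zfp36*, the bottom tercile had 234, 489 and 850 CPM and the top tercile 699, 1420 and 2125 CPM. In limma the log2 differences were 2.64 for *Nr4a1* (adjusted p = 0.0204) and 2.68 for *Zfp36* (adjusted p = 0.00165), against edgeR adjusted p of 0.389 and 0.435. An antisense gene overlaps *Zfp36*, and the use of strand in counting is not given in the sources used here.

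**Figure D2:**
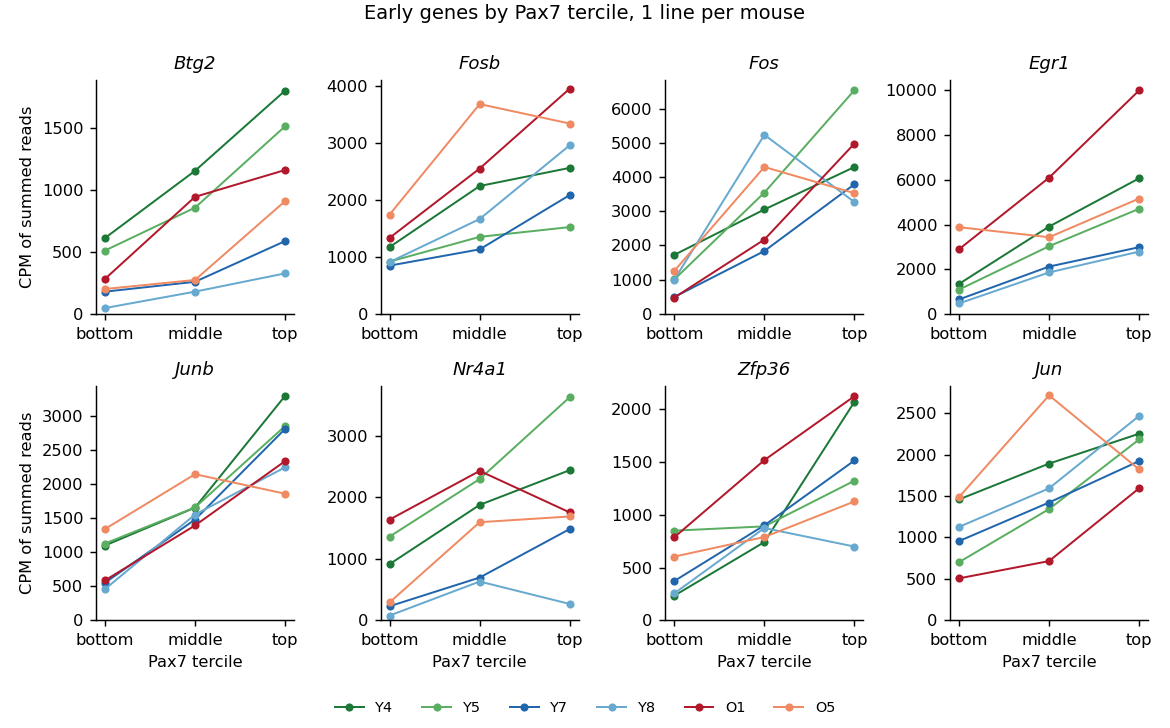
CPM of the summed reads of 8 early genes in the bottom, middle and top *Pax7* tercile, with 1 line for each of the 6 mice. In each panel the top tercile lies above the bottom tercile in all 6 mice, while the middle tercile lies between them in 6 of 6 mice for *Btg2* and in 4 of 6 for *Fos*.

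Both the share of cells with a read and the level in those cells were higher in the top tercile for *Btg2* and *Fos*. A median of 42.7% of the bottom cells and 66.7% of the top cells of a mouse had a *Btg2* read, with the same medians after each cell was thinned to 100000 reads. For *Fos* the shares were 50.0% and 71.1% (49% and 71.1% thinned), and for *Egr1* 58.6% and 86.3% (55.8% and 83.3% thinned). All 3 shares were higher in the top tercile in 6 of 6 mice, thinned or not. Among the cells that had a read, the median level of *Btg2* was 348 RPM in the bottom and 1084 RPM in the top tercile, and that of *Fos* 680 and 2915 RPM.

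Along the whole range of cells, the Spearman correlation with *Pax7* within a mouse was weak. It was between 0.17 and 0.41 for *Btg2*, between 0.19 and 0.43 for *Fos* and between 0.27 and 0.34 for *Egr1*, over 44 to 75 cells of a mouse that share the mouse and its library preparation. For the summed share of the early and stress genes in a cell it was between 0.15 and 0.35. When the cells of each mouse were also cut into terciles by that share, 58 of the 123 cells with the most *Pax7* were in its top tercile and 29 in its bottom tercile. Of the 123 cells with the least *Pax7*, 22 were in its top tercile and 49 in its bottom tercile.

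Of the 40 early and stress genes on the list, 37 were tested. edgeR called 0, limma 7 and DESeq2 12 of them higher, and none of the 3 tests called one lower. Over all genes tested, edgeR called 0%, limma 0.173% and DESeq2 0.778% higher. At an unadjusted p under 0.05 in edgeR, 15 were higher and 1 lower, against 1.87% and 1.5% of all genes tested. The median log2 difference of the 37 was 0.50, against 0.02 over all genes tested. In 13 of the 37 the top tercile was higher in 6 of 6 mice, against 2.25% of all genes tested. Beside the 7 above these were *Jun*, *Egr2*, *Socs3*, *Cyr61*, *Gadd45b* and *Gadd45g*. They encode AP-1 and Egr factors, regulators of growth arrest, a matricellular protein and, in *Socs3*, a feedback inhibitor of cytokine signalling. These directions are of summed CPM. On the mean log2(RPM + 1) scale the difference of *Socs3* was −0.51 in Y5 and that of *Gadd45g* −0.75 in O5.

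*Jun*, the partner of Fos in AP-1, had 507, 1041 and 1486 CPM in the bottom and 1594, 2052 and 2466 CPM in the top tercile, without overlap. Its log2 difference was 1.08 (edgeR adjusted p = 0.389, limma adjusted p = 0.0512, DESeq2 adjusted p = 0.0020). *Egr2* had a difference of 2.32 (edgeR adjusted p = 0.866, DESeq2 adjusted p = 0.00141) at a low level, with a median of 54.1 CPM in the bottom and 264 CPM in the top tercile. *Gadd45b* and *Gadd45g*, stress-induced regulators of growth arrest, had differences of 0.96 and 1.54 (edgeR adjusted p = 0.627 and 0.964). *Socs3* had 1.08 and *Cyr61*, the secreted matricellular protein, 1.47, both at an edgeR adjusted p of 1.00. An antisense gene overlaps *Jun*.

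The direction was not shared by every member. *Fosl1*, another AP-1 subunit, was lower in the top tercile in 6 of 6 mice, with 171, 287 and 760 CPM in the bottom and 69.1, 144 and 269 CPM in the top tercile (log2 difference −1.05, edgeR adjusted p = 1.00). *Jund* had a difference of −0.14, *Atf4* −0.15 and *Myc* −0.32. The heat shock genes went both ways. *Hspa8*, the constitutive chaperone, had −0.18 and was higher in 2 of 6 mice, *Dnajb1* had 0.48 and was higher in 3 of 6, and *Hspa1a* had 0.40. In all, 29 of the 37 had a difference above 0 and 8 below.

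The share of a cell's gene reads on the early and stress genes was averaged over the cells of each tercile. It was 2.51%, 3.15% and 4.32% (lowest, median and highest mouse) in the bottom tercile. It was 3.08%, 4.21% and 4.82% in the middle and 4.21%, 4.94% and 6.02% in the top tercile. The share was higher in the top than in the bottom tercile in 6 of 6 mice, and the ranges of the top and bottom terciles overlapped only between 4.21% and 4.32%. A bottom cell had reads on a median of 21.7 of the 39 genes in the table and a top cell on 25.9. With cells thinned to 100000 reads these were 21.1 and 25.3, again higher in 6 of 6 mice. The number of quiescence, Notch and oxidative phosphorylation genes with a read was also higher in the top tercile in 6 of 6 mice, thinned or not, by a median of 1.24, 0.89 and 1.97 genes as deposited against 3.55 for the early genes.

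limma called 3 further genes higher. *Igfbp5*, a secreted binding protein of insulin-like growth factors, had 469, 726 and 1714 CPM in the bottom and 690, 1612 and 2950 CPM in the top tercile (log2 difference in limma 2.00, adjusted p = 0.0389, edgeR 1.02, adjusted p = 0.903). *Prelp*, a leucine-rich proteoglycan of the matrix, had 24.6, 155 and 405 CPM in the bottom and 438, 496 and 812 CPM in the top tercile, with no overlap (limma 2.29, adjusted p = 0.0408, edgeR 2.05, adjusted p = 1.00). *Brd2*, a bromodomain protein that reads acetylated histones, had 123, 405 and 710 CPM against 325, 643 and 1201 CPM (limma 2.60, adjusted p = 0.00488, edgeR 0.86, adjusted p = 1.00). All 3 were higher in 6 of 6 mice, and the share of cells with a *Brd2* read went from a median of 62.1% to 87.8%. An antisense gene overlaps *Prelp*, and *H2-DMa* overlaps *Brd2* on the other strand.

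The remaining gene among the 6 with the smallest edgeR p and a higher level was *Fam59a*, an adaptor of growth factor signalling, with a log2 difference of 2.26 (edgeR adjusted p = 0.235, DESeq2 adjusted p = 3.39e-06). *Irf1*, an interferon-regulated transcription factor, was outside the rule for named genes and was picked after its values were seen. It had 25.1, 123 and 314 CPM in the bottom and 37.0, 435 and 1106 CPM in the top tercile (log2 difference 1.66, edgeR adjusted p = 0.264, DESeq2 adjusted p = 4.18e-05). *Bmp4*, also picked after its values were seen, is a secreted bone morphogenetic protein, and had 1.33 (edgeR adjusted p = 0.705, DESeq2 adjusted p = 0.00488).

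On the lower side the 4 limma calls were *Odc1*, *Asb5*, *Gm20459* and *Akap2*. *Odc1*, ornithine decarboxylase, the rate-limiting enzyme of polyamine synthesis, had reads in a median of 92.2% of the bottom cells and 69.5% of the top cells. Its mean log2(RPM + 1) was lower in the top tercile in 6 of 6 mice (log2 difference −2.36, limma adjusted p = 0.000353). Its summed reads were lower in 5 of 6 mice, with 1204, 2228 and 5964 CPM in the bottom and 706, 1625 and 2833 CPM in the top tercile (−0.62, edgeR adjusted p = 1.00). Among the cells with a read, its median level was 1890 RPM in the bottom and 1060 RPM in the top tercile.

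*Asb5*, an ankyrin repeat protein of a ubiquitin ligase family, had 1975, 8663 and 26510 CPM in the bottom and 832, 6367 and 11603 CPM in the top tercile. O1 had the highest level in both. Its summed CPM was lower in the top tercile in 6 of 6 mice (−0.77, standard error 0.16, edgeR adjusted p = 0.506). Its mean log2(RPM + 1) was lower in 5 of 6 and higher by 0.32 in Y7 (limma −1.48, adjusted p = 0.0249). *Akap2*, an anchoring protein of protein kinase A, had a median of 2543 CPM in the bottom and 1576 CPM in the top tercile, and *Gm20459* 2517 and 1566 CPM. These are overlapping gene models on chromosome 4 (57717657 to 57896984 and 57568179 to 57896982), so that their near-equal values (−0.71 in both, limma −1.33 and −1.37) are counts of largely the same locus.

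Of the 6 lower genes with the smallest edgeR p, *Bcar3*, *Wdr77* and *Eif4e* were not called by limma but had a DESeq2 adjusted p of 6.49e-06, 2.57e-05 and 0.00427. *Bcar3*, an adaptor in integrin signalling, had 147, 307 and 743 CPM in the bottom and 18.9, 92.9 and 175 CPM in the top tercile (−2.06, edgeR adjusted p = 0.235, limma adjusted p = 0.0680). *Wdr77*, a subunit of the arginine methyltransferase methylosome, had −2.44 (edgeR adjusted p = 0.435), and it overlaps *Atp5f1* on the opposite strand. *Eif4e*, the cap-binding factor of translation initiation, had −1.37 (edgeR adjusted p = 0.627). The summed CPM of each was lower in 6 of 6 mice, which held for 2.32% of all genes tested. On the mean log2(RPM + 1) scale *Eif4e* was higher by 0.46 in Y4 and *Wdr77* by 0.05 in O5.

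**Figure D3:**
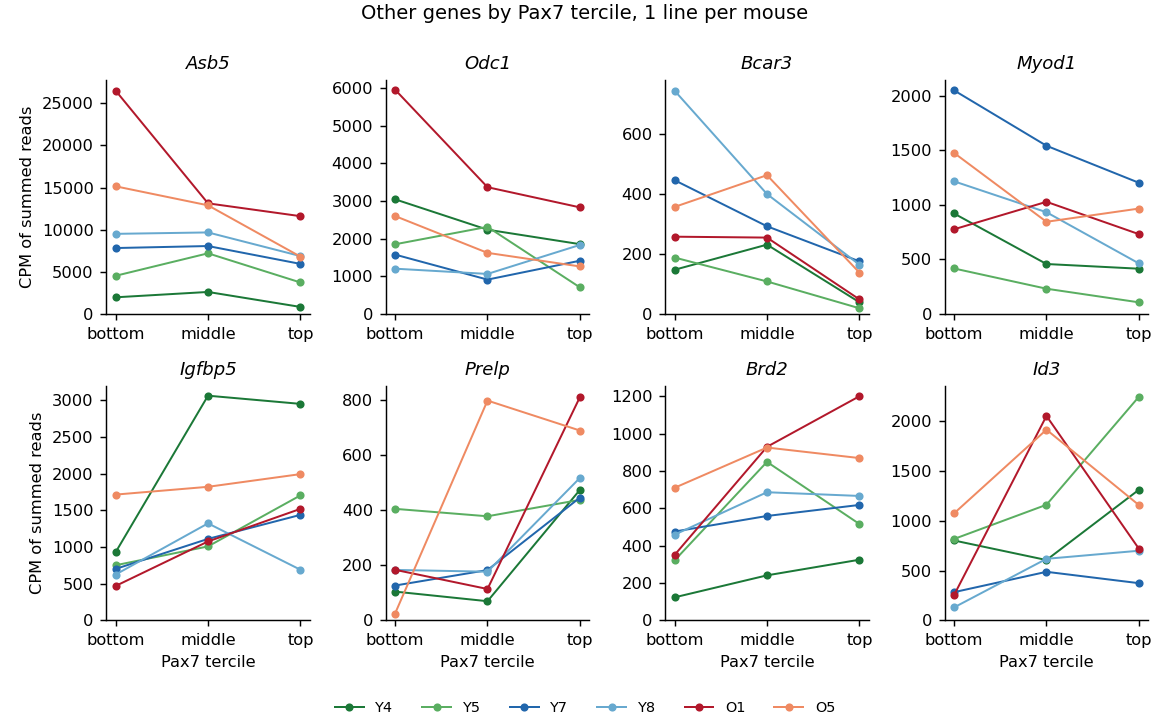
CPM of the summed reads of 8 further genes in the bottom, middle and top *Pax7* tercile, with 1 line for each of the 6 mice. *Asb5*, *Bcar3* and *Myod1* are lower in the top than in the bottom tercile in 6 of 6 mice and *Odc1* in 5 of 6, while *Igfbp5*, *Prelp*, *Brd2* and *Id3* are higher in 6 of 6.

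Among the myogenic transcription factors, 14 of 22 were tested, and edgeR and limma called 0 of them. Over all 5786 genes tested, limma called 0.173% higher and 0.0691% lower, and DESeq2 0.778% and 0.467%. A count of 0 calls, here and in the lists below, is near these shares and is not a result about the members. DESeq2 called *Myod1*, the factor that commits activated cells to the muscle lineage, lower. It had 417, 1067 and 2047 CPM in the bottom and 106, 597 and 1201 CPM in the top tercile, and was lower in 6 of 6 mice (log2 difference −0.97, standard error 0.25, edgeR adjusted p = 0.964, DESeq2 adjusted p = 0.0340). A median of 56.6% of the bottom cells and 40.2% of the top cells had a *Myod1* read (54.4% and 39.5% thinned). *Id3*, which holds myogenic factors back from DNA, was higher in 6 of 6 mice, with a median of 543 CPM in the bottom and 939 CPM in the top tercile (1.12, edgeR adjusted p = 1.00).

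*Myf5*, the factor already transcribed in quiescent cells, was higher in 3 of 6 mice and lower in 3 of 6, with medians of 332 and 492 CPM (0.60, standard error 0.35, edgeR adjusted p = 1.00). *Msc*, a basic helix-loop-helix repressor, had medians of 490 and 216 CPM and was lower in 5 of 6 (−1.56). The others given here ranged from −0.92 for *Tcf12* to 0.92 for *Lbx1*, with *Eya1* at −0.73, *Mef2a* at −0.43, *Tcf4* at −0.07, *Id2* at 0.36, *Id1* at 0.40, *Mef2d* at 0.44 and *Nfix* at 0.73, and an edgeR adjusted p of 1.00 for each. The median of the 14 was 0.14, against 0.02 over all genes. *Pax3*, *Myog*, *Myf6*, *Mef2c*, *Six4*, *Sox8*, *Barx2* and *Meox2* were too low to be tested. Of the 10 genes listed as possible partners of the Pax7 protein, 7 were in the table under the symbol used. Of these, 4 were tested (*Carm1*, *Wdr5*, *Ash2l* and *Nedd4*), with 0 called by any of the 3 tests. *Nedd4*, a ubiquitin ligase, had medians of 449 and 510 CPM (0.47).

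The list of quiescent muscle stem cell genes held 36 symbols, of which *Tenm4* and *Odz4* name the same gene. Of these, 29 were tested and 0 were called by edgeR, limma or DESeq2. Their median log2 difference was 0.23, with 20 above and 9 below 0. Several of them had differences near 0. *Gpx3*, an extracellular glutathione peroxidase, had medians of 12091 CPM in the bottom and 12312 CPM in the top tercile (0.03), *Sdc4*, a heparan sulphate proteoglycan, 8354 and 6062 CPM (−0.20), and *Calcr*, the calcitonin receptor, 236 and 286 CPM (0.05). *Gas1*, the growth factor receptor *Fgfr4* and the imprinted zinc finger gene *Peg3* were higher in 6 of 6 mice, with 0.94, 0.49 and 0.47 (edgeR adjusted p = 1.00 for each). On the mean log2(RPM + 1) scale, however, the difference of *Peg3* was −1.43 in O5. *Gas1*, a growth arrest protein at the membrane, had reads in a median of 59.8% of the bottom and 78.9% of the top cells. *Spry1*, an inhibitor of receptor tyrosine kinase signalling, had 155 and 248 CPM and was higher in 5 of 6 mice (0.92).

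Of the 24 genes of the Notch pathway, which keeps muscle stem cells quiescent, 14 were tested and 0 were called by the 3 tests. The median was 0.38, with 10 above and 4 below 0. *Notch3*, a receptor, was higher in 5 of 6 mice with medians of 348 and 621 CPM (0.98, edgeR adjusted p = 1.00), *Notch1*, another receptor, in 4 of 6 with 295 and 487 CPM (0.54), and *Heyl*, a target, in 4 of 6 with 171 and 270 CPM (0.54). An antisense gene overlaps *Notch3*.

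Of the 46 extracellular matrix genes, 32 were tested and 0 were called by the 3 tests, with a median of 0.35. *Col4a2*, *Bgn* and *Lamc1*, a basement membrane collagen, a small proteoglycan and a laminin chain, were higher in 6 of 6 mice (1.44, 0.74 and 0.69, edgeR adjusted p = 1.00 for each). Other members had 0.13 for *Sparc*, 0.61 for *Col3a1* and −0.07 for *Adamts1*. The mean share of a cell's reads on the list was higher in the top tercile in 4 of 6 mice.

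The 77 ribosomal protein genes were all tested and 0 were called by the 3 tests, but most lay on the same side. Their median log2 difference was −0.14, with 61 below and 16 above 0. They took a mean of 4.03%, 5.24% and 5.96% of a cell's reads in the bottom tercile. In the top tercile these means were 3.85%, 4.36% and 5.65%, lower in 6 of 6 mice. *Rplp0*, a stalk protein of the large subunit, had medians of 2306 and 1942 CPM (−0.19), while *Rps4x*, of the small subunit, had 3114 and 2783 CPM with a fitted difference of 0.00. *Rps26* and *Rps18* were among those lower in 6 of 6 mice. When cells were cut into terciles by their ribosomal share, 34 of the 123 cells with the most *Pax7* were in its top and 39 in its bottom tercile. Of the 123 cells with the least *Pax7*, 52 were in its top and 33 in its bottom tercile. In O1 the counts in its top tercile went the other way, with 6 cells with the most and 5 with the least *Pax7*. The Spearman correlation of the ribosomal share with *Pax7* over the cells of a mouse was between −0.18 and 0.00. Near-identical ribosomal pseudogenes can share these reads.

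Of the 85 oxidative phosphorylation genes, 75 were tested and 0 were called by the 3 tests, with a median of 0.14. The list was drawn by symbol and also took *Cox4nb*, which is not a subunit of the chain. *Sdhc*, *Sdhd* and *Ndufa4* were among those higher in 6 of 6 mice, while *Atp5b* had −0.09 and *Cox4i1* 0.02. Of the 28 cell cycle genes, 10 were tested and 0 were called by the 3 tests. Their median was 0.71. The list took a mean of 0.131% to 0.197% of a cell's reads in the bottom and 0.147% to 0.188% in the top tercile. *Pcna*, the sliding clamp of DNA replication, had medians of 189 and 122 CPM (−0.66, limma −1.52, adjusted p = 0.311) and reads in a median of 52.1% of the bottom and 28.9% of the top cells. The cyclins and kinases had 0.77 for *Ccnd1*, higher in 3 of 6 mice, 0.50 for *Ccnd3* and 0.65 for *Cdk4*, and the inhibitors −0.37 for *Cdkn1a* and 0.32 for *Cdkn1b*.

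**Figure D4:**
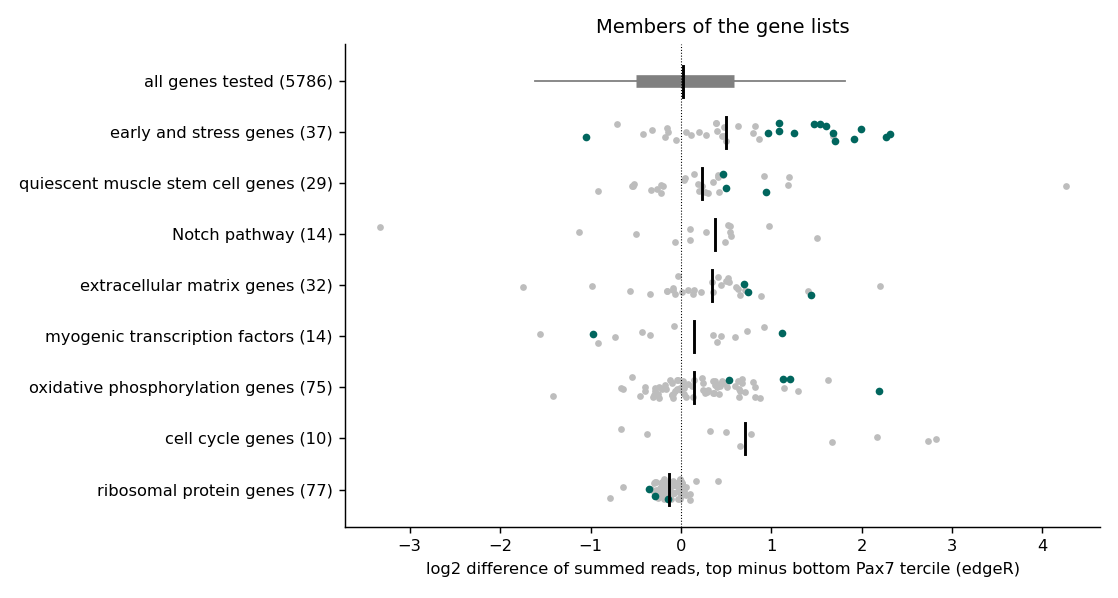
log2 difference of the summed reads, top minus bottom *Pax7* tercile, for the tested members of 8 gene lists, with the number tested in brackets, 1 point per gene, green where all 6 mice had the same direction, and a bar at the median. For all genes tested the thick grey line spans −0.50 to 0.59 (the middle 50%) and the thin line −1.61 to 1.82 (the middle 90%), with a median of 0.02.

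Several defining markers of other cells of the muscle were at or near 0 in both terciles. *Cdh5*, *Kdr*, *Tie1* and *Emcn* of endothelium, *Pdgfra*, *Dcn* and *Lum* of fibro-adipogenic cells, *Lyz2*, *Laptm5* and *Tyrobp* of immune cells, *Ckm*, *Tnnc2* and *Mb* of fibres, *Myh11* of smooth muscle and *Sox10* and *Tnmd* of Schwann and tendon cells had no read in any of the 377 cells. *Ptprc* had reads in 1 bottom cell and *Pecam1* in 1 middle cell. Other members of these lists had reads in a few cells of every tercile. Of the immune list, *Csf1r* was read in 7 bottom, 7 middle and 8 top cells, *Cd68* in 4, 6 and 5 and *Cd14* in 4, 3 and 2. Of the fibre list, *Atp2a1* was read in 7, 7 and 6 and *Eno3* in 1, 5 and 4. *Col1a1* was read in 4, 5 and 7, *Scx* in 5, 5 and 3 and *Abcc9* in 6, 9 and 4. On the smooth muscle list, *Acta2* had reads in 26 bottom, 24 middle and 34 top cells, and *Tagln* in 19, 38 and 21. None of the endothelial, immune, fibre or Schwann and tendon lists had a gene that was tested. The mean share of a cell's reads on each of these lists was at most 0.0124% in any tercile of any mouse. *Dpt*, *Gsn* and *Serping1* of the fibro-adipogenic list and *Des* and *Notch3* of the smooth muscle list were widely read in both terciles, with *Gsn* in 91 bottom and 108 top cells and *Serping1* in 114 and 109, and 0 of the 7 tested genes of these 2 lists were called by the 3 tests. The mean share of a cell's reads on the fibro-adipogenic list was 0.287% to 0.447% in the bottom and 0.253% to 0.510% in the top tercile. That of the smooth muscle list was 0.184% to 0.311% and 0.208% to 0.323%.

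Differences in depth between the terciles were smaller than their spread between mice. A top cell had 1989 ± 239 genes detected (SD of mouse means, n = 6) and a bottom cell 1929 ± 320, a difference of 59.5 ± 166 that was above 0 in 3 of 6 mice (exact two-sided sign-flip permutation test, p = 0.5). Gene reads per cell were 266583 ± 39243 and 262978 ± 58735, with a difference of 3605 ± 43415 above 0 in 4 of 6 mice (exact sign-flip permutation test, p = 0.875). The differences went opposite ways in single mice, with 339 more genes per top cell in O1 and 163 fewer in Y8. The mean Spearman correlation between cells of the same tercile, over the 500 most variable genes of the mouse without *Pax7*, was 0.227 ± 0.050 in the top and 0.204 ± 0.050 in the bottom tercile. The difference of 0.0228 ± 0.0243 was above 0 in 4 of 6 mice (exact sign-flip permutation test, p = 0.125). With 6 mice the smallest p of this test is 0.0313.

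The effect of the *Pax7* tercile was also compared between ages. As a difference of log2 differences, old minus young, edgeR called 0 of 5786 genes (0%), with 282 at an unadjusted p under 0.05, limma called 0 and DESeq2 169 (2.92%). *Fos* had 2.19 ± 0.38 (standard error) in the young and 2.44 ± 0.56 in the old mice, and *Btg2* 1.93 ± 0.28 and 2.12 ± 0.40. *Egr1* had 2.30 ± 0.23 in the young and 1.11 ± 0.32 in the old mice, a difference of −1.19 ± 0.39 that did not pass (edgeR adjusted p = 0.973). On the mean log2(RPM + 1) scale of limma, *Egr1* had 3.59 in the young and 3.71 in the old mice, a difference of 0.12 ± 0.77. That error is too wide to tell whether the ages differ. *Fosb* had 2.04 and 0.76 on that scale (difference −1.28 ± 0.61, limma adjusted p = 0.929), but 1.25 and 1.26 in edgeR. *Myod1* had −1.29 ± 0.25 and −0.34 ± 0.35 (difference 0.95 ± 0.43, edgeR adjusted p = 0.990), and in limma −1.87 and −1.57. The old group rests on 2 mice. Both were sequenced on lane 2, and lane 3 held only young mice, so differences between ages and between lanes cannot be fully told apart.

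Within each lane the 7 early genes had the same sign of difference as over all mice. *Fos* had 2.63 in the mice of lane 2 and 1.92 in those of lane 3, *Btg2* 1.99 and 1.98, *Egr1* 1.49 and 2.31, and *Junb* 1.64 and 1.76. *Myod1* had −0.47 in lane 2 and −1.48 in lane 3. In limma the order of the lanes was the other way for *Egr1*, with 3.73 in lane 2 and 3.52 in lane 3, and *Myod1* had −1.36 and −2.19.

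The size of the early gene differences depended on the cut. With only cells that had a *Pax7* read ranked, the log2 difference was 1.09 for *Fos*, 1.07 for *Egr1*, 1.21 for *Btg2* and 1.09 for *Junb*. With each mouse cut into 2 groups in place of 3, it was 0.78 for *Fos*, 0.64 for *Egr1*, 1.02 for *Btg2* and 0.77 for *Junb*. None of these passed edgeR's test, and all were above 0.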

How the data were processed

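The authors mapped trimmed read pairs with HiSat2 (GRCm38) and deposited unnormalized read counts from SeqMonk for the cells above their minimum of genes and reads. Which annotation release was counted, and whether by strand, is not given in the sources used here. The table held 25952 genes and 377 cells, each assigned by its column name to 1 of 6 mice. A further 391 labelled samples were not analysed here. Counts were summed per mouse and *Pax7* tercile and fitted with edgeR 4.0.16 (R 4.3.3, TMM, quasi-likelihood test, mouse as block, Benjamini-Hochberg threshold 0.05). A gene was tested if filterByExpr with a minimum count of 10 kept it and at least 10% of the compared cells had a read. *Pax7* was fitted but left out of the adjustment. DESeq2 1.42.0 on the same sums and limma 3.58.1 on the mean log2(RPM + 1) of the cells, with a pseudocount of 1 RPM, were alternatives. The block holds because both terciles come from the same animal. Depth and cell-to-cell correlation were averaged per mouse and tercile and tested by exact sign-flip permutation in Python 3.11.15 with scipy 1.17.1. The fits were also run on simulated tercile sums, and the outcome is not given here. There limma was given the log2 CPM of the sums, so its use on means over cells was not checked. In the data, edgeR's common dispersion (spread between sums beyond counting noise) was 0.911 and the median over single genes 0.807.

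The terciles and gene lists were chosen with earlier results of these data known. Named by rule were the 6 genes with the smallest edgeR p in each direction, all myogenic transcription factors, and the 4 members of each list with the highest CPM. The other genes named, among them those called only by limma or DESeq2 and those with 1 direction in 6 of 6 mice, were chosen after their values were seen. Values of a few list members are not reported here.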

Additional observations from a re-analysis of the deposited data

How the results depend on the processing

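The count of 0 genes called by edgeR stayed at 0 with DESeq2 size factors, with filterByExpr alone and with cells cut into 2 groups. It also stayed at 0 with only cells that had a *Pax7* read and in either lane alone. For the young and the old mice, taken as separate terms of 1 edgeR fit to all 6 mice, it was 0 as well. With only cells that had a *Pax7* read the difference of *Fos* was 1.09, and with 2 groups 0.78, against 2.27 with terciles. The count became 5 without the low-count filter (*Btg2*, *Egr1*, *Fos*, *Fosb* and *Junb*), 2 with every cell thinned to 100000 reads, 1 with cells matched on genes detected, 1 with *Pax7* kept in the adjustment (chosen after seeing the data), 72 in DESeq2 and 14 in limma. Without the replicate block of the mouse it was 1 (*Fos*). Leaving out 1 mouse gave 0 to 2. The limma count ranged from 8 to 12 with 1 mouse left out, and was 8 in young mice, 4 in old mice, 4 in lane 2 and 2 in lane 3 (chosen after seeing the data). *Btg2*, *Egr1*, *Fos*, *Junb*, *Zfp36*, *Brd2* and *Odc1* were called in all 6 of these fits with 1 mouse left out, and *Fosb* in 2. Over all mice, however, DESeq2 did not call *Brd2* or *Odc1* (DESeq2 adjusted p = 0.0982 and 0.307). Of the other limma calls, *Nr4a1* and *Asb5* were called in 3, *Igfbp5*, *Prelp* and *Akap2* in 2 and *Gm20459* in 1. The age difference gave 169 genes in DESeq2. The difference in genes per cell was 3.60 to 104 with 1 mouse left out and −3.08 as a median over cells. That in reads per cell was −7951 to 15216 with 1 mouse left out (−1227 without O1), −4939 as a median over cells and −3090 with 2 groups. The causes were not tested. The median of the early and stress genes stayed between 0.34 and 1.05, and that of the ribosomal protein genes between −0.18 and −0.05.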

Other observations

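Other genes had 1 direction in all 6 mice and were picked after their values were seen. *Chodl*, a membrane lectin, had medians of 2340 CPM in the bottom and 3124 CPM in the top tercile (log2 difference 0.53, edgeR adjusted p = 1.00, limma adjusted p = 0.0510). *Hif1a*, the oxygen-sensitive transcription factor, had 370 and 189 CPM and was lower in 6 of 6 mice (−1.73, edgeR adjusted p = 1.00, limma adjusted p = 0.0824). DESeq2 alone called *Igfbp7*, a secreted growth factor binding protein, higher (edgeR log2 difference 1.89, DESeq2 adjusted p = 0.0288) and *Dio2*, the enzyme that activates thyroid hormone, lower (−4.31, DESeq2 adjusted p = 0.000505).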
